A study of Mus musculus with 6 samples.

Results

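The genes of the vacuolar proton pump (V-ATPase) and of the nutrient-sensing complexes that sit on the lysosome with it were followed in the liver transcriptomes of gSpns1-cKO mice and of controls, with 3 livers in each group and 1 library per liver. The members were chosen by gene name among the protein-coding genes of the count table, as all genes named Atp6v0, Atp6v1 or Atp6ap, the 5 Lamtor genes, the 4 Rrag genes, Flcn, Fnip1 and Fnip2. This gave 38 of the 22046 protein-coding genes listed. The labels call the groups SPNS1 KO and wild type. In the methods, gSpns1-cKO mice are Spns1 fl/fl mice that carry a tamoxifen-inducible Cre (CreERT2) at the Rosa26 locus, a locus active in most cell types, and body-wide loss of exon 3 of Spns1 was induced by tamoxifen (50 mg/kg) injected at P11, P13 and P15 (postnatal days 11, 13 and 15). The controls of the methods were Spns1 fl/fl littermates without Cre, so both groups would carry the floxed allele, and whether the controls also received tamoxifen, and the age at which these livers were taken, is not given in the sources used here. SPNS1 is a lysosomal exporter of lysophospholipids. From an indirect assay, the paper proposes that the release of sphingosine from lysosomes needs it as well. The livers were sequenced to learn which pathways change with the lipid accumulation.

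The V-ATPase is a rotary pump. Its cytosolic V1 part hydrolyses ATP, its membrane V0 part carries protons into the lumen, and the acid it makes is what lysosomal hydrolases work in. On the outer face of the lysosome the Ragulator complex (Lamtor genes) holds the Rag GTPases, which as pairs of RagA or RagB with RagC or RagD bring the kinase complex mTORC1 to the lysosome when amino acids are plentiful. Folliculin (Flcn) with FNIP1 or FNIP2 activates RagC and RagD, and active RagC and RagD in turn allow mTORC1 to hold the transcription factors TFEB and TFE3 in the cytoplasm. Released from it, TFEB and TFE3 bind E-boxes (CACGTG) near the start of many lysosomal genes.

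Sequence upstream of the RefSeq start is shown for the members on which the results turn and for which a start region was at hand. Full start regions (250 bases before to 50 after the start in RefSeq, GRCm38.p6) were found for 30 of the 38 members, and not for the other 8 (Atp6v0a2, Atp6v0d2, Atp6v1b2, Atp6v1c1, Atp6v1g1, Atp6v1h, Lamtor3 and Atp6ap1l). The E-box CACGTG, which reads the same on both strands, was found in 9 of these 30 genes (Atp6v0b, Atp6v0d1, Atp6v0e, Atp6v1a, Fnip1, Lamtor1, Lamtor4, Rragb and Rragc), beside 8.09% of the 27025 genes with such a region. The longer TCACGTG, which contains the E-box and was searched on both strands, was in the same 9 members, beside 4.29% of all genes. Stretches around the E-box (in capitals) follow for Atp6v1a (chr16:44139355-44139420, minus strand, ending 96 bases before the start), Rragc (chr4:123917291-123917356, plus strand, ending 77 bases before the start) and Lamtor4 (chr5:138255332-138255413, plus strand, ending 69 bases before the start, with 2 E-boxes). These genes stand for a V1 subunit that was higher, a Rag gene that was higher and a Ragulator gene that was lower. Atp6v1a as counted spans 44085402 to 44139705, beyond the RefSeq start used. Its stretch therefore lies inside the gene as counted, though in no exon of GENCODE M21. For Rragd, the member with the largest difference, the whole 250 bases before the start are given (chr4:32982748-32982997, plus strand), with no E-box in them.
Atp6v1a: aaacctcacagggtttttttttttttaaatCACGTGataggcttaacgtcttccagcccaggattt
Rragc: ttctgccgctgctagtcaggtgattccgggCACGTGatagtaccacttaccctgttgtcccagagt
Lamtor4: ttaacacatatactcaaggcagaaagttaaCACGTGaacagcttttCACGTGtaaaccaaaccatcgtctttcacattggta
Rragd: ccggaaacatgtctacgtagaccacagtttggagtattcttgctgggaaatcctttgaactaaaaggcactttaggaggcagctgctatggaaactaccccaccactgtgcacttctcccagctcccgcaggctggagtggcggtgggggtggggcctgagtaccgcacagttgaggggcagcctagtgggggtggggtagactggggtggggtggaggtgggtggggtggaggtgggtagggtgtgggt

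Levels are given as CPM (read counts relative to the size of the library) scaled between libraries by the TMM method, and a gene was called when the adjusted p of edgeR's quasi-likelihood test (Benjamini-Hochberg over the 15449 genes tested) was under 0.05. The libraries held 30350002 to 35295611 counts. Before TMM scaling, 3 counts, the limit that a count of 0 allows, corresponded to 0.0850 to 0.0988 CPM. TMM factors were 0.834 to 0.873 in controls and 1.16 to 1.18 in gSpns1-cKO livers, so the scaling matters for small differences. Without it, by library size alone, the median over all 15449 genes rose from 0.014 to 0.46 on the log2 scale. Spns1 itself was at 35.9, 50.7 and 34.6 CPM in control livers and at 17.8, 30.6 and 17.8 CPM in gSpns1-cKO livers. It was lower without overlap (log2 fold change -0.87, SE 0.255, edgeR adjusted p = 0.0300), although the call was lost by library size alone (-0.43, adjusted p = 0.213) and by upper-quartile scaling (-0.74, adjusted p = 0.0635). It was also lost without gSpns1-cKO liver 1 (adjusted p = 0.0910), gSpns1-cKO liver 3 (0.0830) or control liver 2 (0.0785).

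The cell make-up of the livers differed as well. All 12 macrophage markers were called higher, and none was at 0, with a summed level of 200 to 324 CPM in controls and 776 to 1139 CPM in gSpns1-cKO livers. Of 10 markers of lipid-associated macrophages 8 were called higher (278 to 373 against 549 to 605 CPM summed), as were 6 of 7 cholangiocyte, 6 of 8 stellate and 5 of 7 endothelial markers. So were 4 of 4 tested neutrophil and 2 of 8 lymphocyte markers, while of 5 tested erythroid markers 2 were called higher and 1 lower. Among all genes tested, 21.3% were called higher and 20.5% lower. The 8 hepatocyte markers summed to 99938 to 112660 CPM in controls and 60874 to 69880 CPM in gSpns1-cKO livers, and 5 of them were called lower and none higher. In RNA from whole liver, fewer cells of a type and less RNA per cell cannot be told apart, and the part of these shifts in the members' differences was not tested.

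Of the 38 members, 30 passed the filter on low counts. Of these, 13 were called higher in gSpns1-cKO livers (43.3%, where 21.3% of all genes tested were called higher), 3 were called lower (10%, background 20.5%) and 14 were not called (background 41.8% called in either direction). The gSpns1-cKO livers lay all above the controls for 14 members (46.7%, background 27.1%) and all below for 5 (16.7%, background 26.9%). The median log2 fold change of the 30 was 0.26, beside 0.014 over all genes tested, and relative to the median of all genes it was 0.25 under TMM, under upper-quartile scaling and by library size alone. Most differences were small, and only 2 members passed the test with at least a 2-fold difference, Rragd and Atp6v0d2 (background 17.9% in either direction), both higher. Both are the less abundant paralogs of genes that differed little. By library size alone 20 members were called higher (background 47.2%) and 0 lower (background 6.28%, and 0 at an unadjusted p under 0.05), and by upper-quartile scaling 15 higher (background 26.6%) and 2 lower (background 14.5%). DESeq2 called 10 higher and 4 lower (background 21.5% and 21.2%), and limma-voom 11 and 3 (background 21.1% and 20.9%). The 13 and 3 calls did not all hold up when a liver was left out. Leaving out 1 liver at a time gave 6 to 10 members called higher and 2 to 5 called lower. The share of all genes called in these fits is not given, so a loss of calls among the members cannot be told from a general one. Called in every one of these fits were 6 of the 13 (Rragd, Lamtor3, Atp6v0d2, Atp6v1a, Atp6v1b2 and Atp6ap2) and 2 of the 3 (Lamtor2 and Lamtor4).

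Of the 9 members with an E-box in the start region, 8 had enough counts to be tested. Among them 2 were called higher (background 21.3%), 1 lower (background 20.5%) and 5 not called. Of the 21 without one, 15 were tested, and 7 were called higher, 2 lower and 6 not called, beside the same background. Whether the 2 sets differ was not tested. A match of these letters is a description of the sequence and does not show that a factor was bound in these livers.

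**Figure D1:**
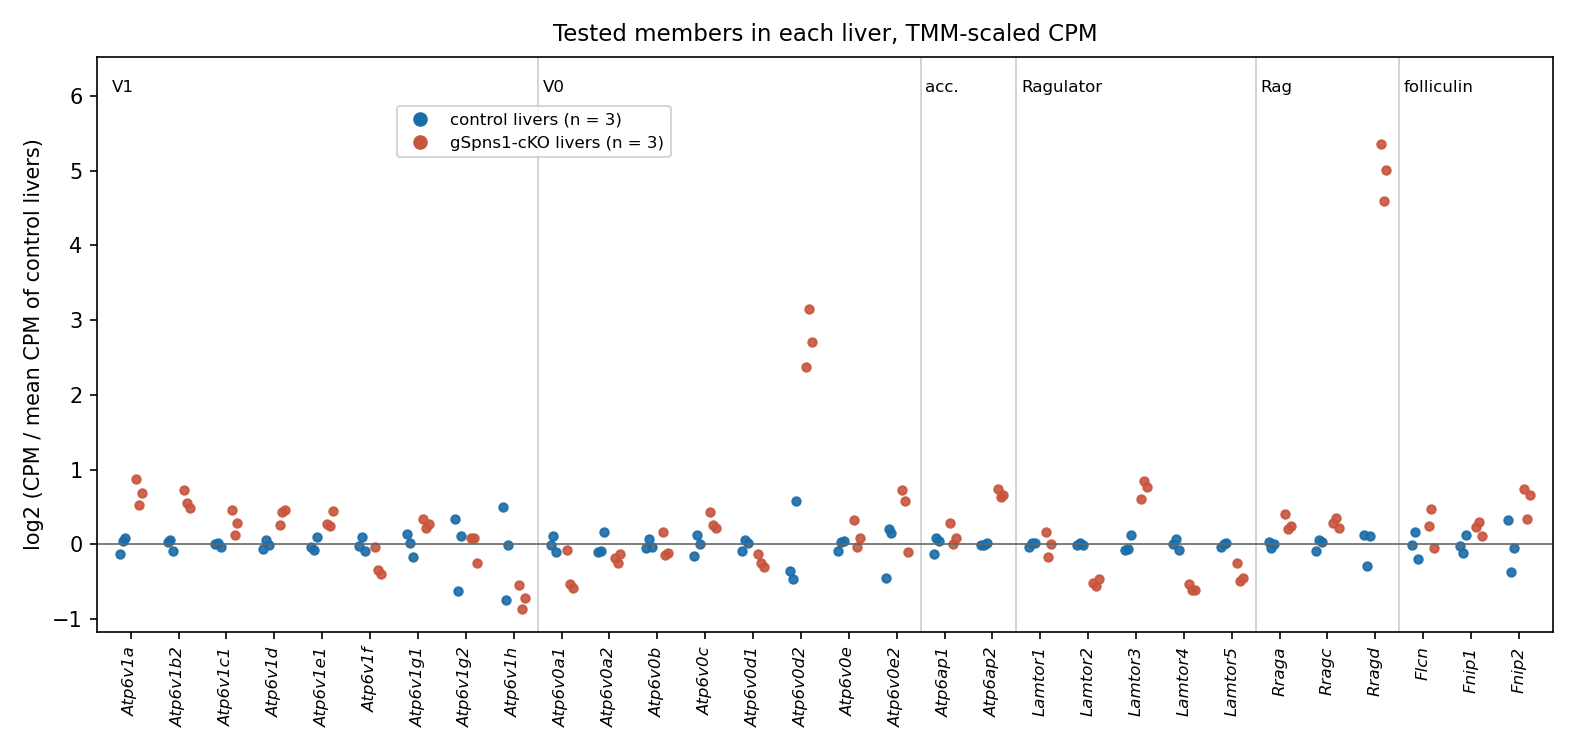
Level of each tested member in each liver, as log2 of its CPM over the mean CPM of the 3 control livers, by complex (acc., accessory proteins). Each point is 1 liver, control livers in blue and gSpns1-cKO livers in red. Rragd and Atp6v0d2 stand far above the rest, the other members lie within 1 log2 unit of the control mean, and control points for Atp6v1h are spread from 62.2 to 147 CPM.

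Among the Rag GTPases, Rragd stood out. It encodes RagD, which pairs with RagA or RagB as RagC does. Rragd (chromosome 4, 32983037 to 33022180, plus strand, GRCm38) had 57, 47 and 51 reads in the control livers and 2740, 1716 and 2345 reads in the gSpns1-cKO livers, or 2.03, 1.53 and 2.02 CPM against 76.2, 44.7 and 59.7 CPM. Every gSpns1-cKO liver was above every control by a wide margin, and control livers were near 2 CPM. The difference was 32.5-fold (log2 fold change 5.02, 95% interval 4.50 to 5.54, edgeR adjusted p = 1.87e-06), the 44th highest log2 fold change among the 15449 genes tested. It stayed between 4.81 and 5.20 when any 1 liver was left out.

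Rragc, encoding RagC, was at 51.4, 57.0 and 55.9 CPM in control livers and at 67.0, 69.7 and 63.8 CPM in gSpns1-cKO livers. The groups did not overlap, with a log2 fold change of 0.29 (SE 0.0994, edgeR adjusted p = 0.0391). Rraga, encoding RagA, was at 28.7, 27.0 and 28.1 CPM in controls and at 37.1, 32.1 and 33.0 CPM in gSpns1-cKO livers, again without overlap (0.29, SE 0.104, edgeR adjusted p = 0.0472). Both calls were close to the threshold and were lost whichever of the 6 livers was left out, with the highest adjusted p at 0.138 for Rragc and 0.135 for Rraga, while the log2 fold changes stayed between 0.22 and 0.33. Rragb, encoding RagB, had too few reads to test, with 0, 1 and 2 reads in controls and 8, 7 and 5 in gSpns1-cKO livers. Summed over livers and relative to the TMM-scaled library sizes, it was 4.94 times as high in gSpns1-cKO livers (exact 95% interval 1.47 to 26.0, which covers counting error only).

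The share of Rragd within its pair does not depend on the scaling between libraries. Counted per kilobase of gene length, Rragd made up 2.48, 1.70 and 2.27% of Rragc plus Rragd in control livers and 42.3, 29.3 and 37.6% in gSpns1-cKO livers. The groups were far apart, with a difference of 4.70 in the log2 ratio of Rragd to Rragc (SD of the log2 ratio 0.290 in controls and 0.419 in gSpns1-cKO livers, n = 3 each). The two-sided exact permutation test gave p = 0.1, the smallest p that 3 against 3 livers allow (0.26 when adjusted over the 13 paralog pairs compared). Per length, Rragd (0.359 ± 0.0553 CPM per kb, SD, n = 3) was far below Rragc (16.4 ± 0.879) and Rraga (17.3 ± 0.552) in controls. In gSpns1-cKO livers it reached 11.6 ± 3.04 CPM per kb, still below Rragc at 20.0 ± 0.887 and Rraga at 21.1 ± 1.65. Rragc and Rraga did not differ from each other beyond their spread in either group.

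**Figure D2:**
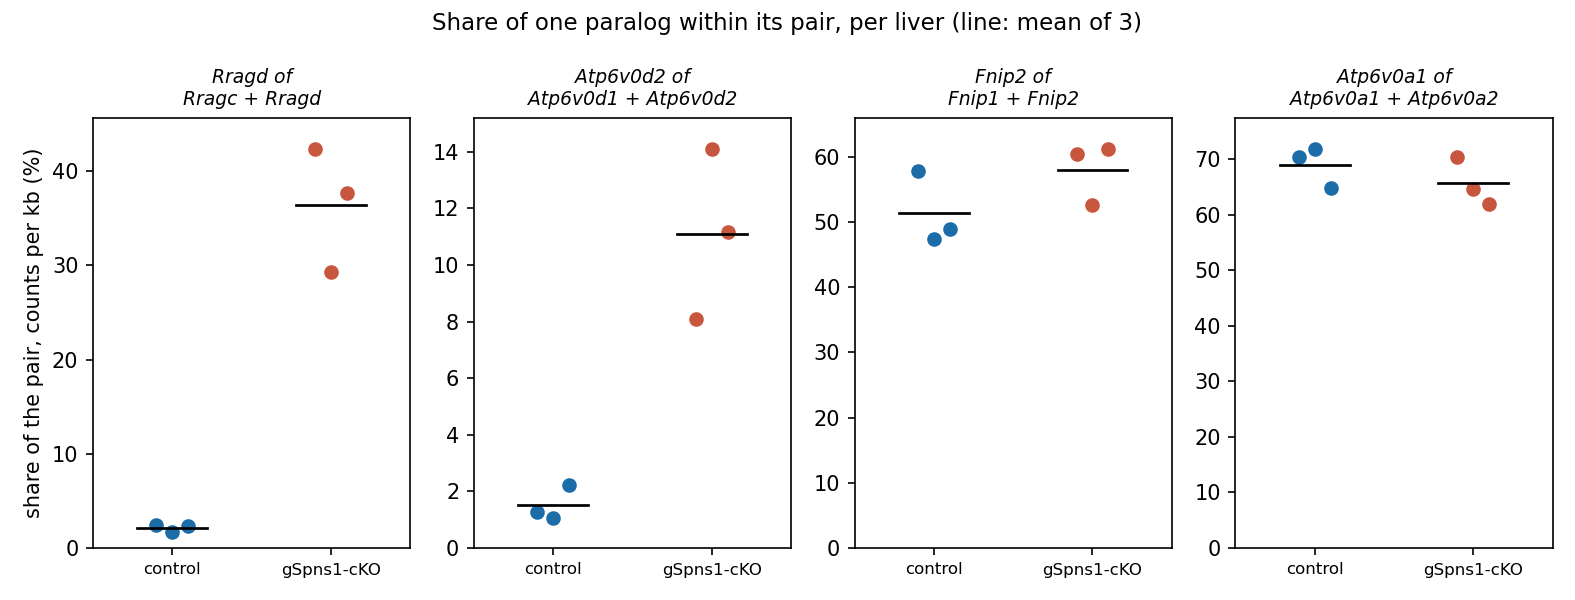
Share of one paralog in the summed counts per kb of its pair, in percent, for each control liver (blue) and gSpns1-cKO liver (red). The line is the mean of 3 livers and each vertical axis starts at 0. The shares of Rragd (1.70 to 2.48% against 29.3 to 42.3%) and Atp6v0d2 (1.07 to 2.23% against 8.10 to 14.1%) do not overlap between groups, whereas those of Fnip2 and Atp6v0a1 do.

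The 5 Ragulator genes, which encode the scaffold that anchors the Rag GTPases to the lysosome, differed in both directions under TMM scaling. Of them, 1 was called higher (background 21.3%) and 3 were called lower (background 20.5%). Lamtor3 was at 13.8, 13.9 and 15.8 CPM in control livers and at 22.2, 26.2 and 24.8 CPM in gSpns1-cKO livers. It was higher without overlap (log2 fold change 0.75, SE 0.119, edgeR adjusted p = 0.000818). Lamtor2, whose product forms a pair with that of Lamtor3 inside the complex, was at 85.0, 86.4 and 84.9 CPM in controls and at 59.8, 58.1 and 62.1 CPM in gSpns1-cKO livers. The values were tight in both groups and the fold change had the opposite sign (-0.51, SE 0.0955, edgeR adjusted p = 0.00206). Lamtor4 fell from 87.4, 91.6 and 82.7 CPM in controls to 60.5, 57.4 and 57.4 CPM in gSpns1-cKO livers (-0.58, SE 0.0987, edgeR adjusted p = 0.00122). Its partner Lamtor5 was at 37.1, 38.1 and 38.2 CPM in controls and at 31.8, 27.0 and 27.8 CPM in gSpns1-cKO livers (-0.39, SE 0.104, edgeR adjusted p = 0.0132), while by library size alone its log2 fold change was 0.054. The values of Lamtor4 and Lamtor5 did not overlap between the groups. Lamtor1, whose lipid anchor holds the complex on the membrane, was at 53.4 to 55.9 CPM in controls and 49.1 to 61.5 CPM in gSpns1-cKO livers and was not called (log2 fold change 0.0087, 95% interval -0.23 to 0.25).

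The 3 lower calls depended on the scaling. By library size alone none of them was called, with log2 fold changes of -0.066 for Lamtor2, -0.14 for Lamtor4 and, with the sign turned, 0.054 for Lamtor5, while Lamtor3 was at 1.19 and remained called. Set against the median of all genes, which lay at 0.46 in that fit, the same genes were at -0.52, -0.59, -0.40 and 0.74. The call of Lamtor5 was also lost by upper-quartile scaling and without gSpns1-cKO liver 3 (adjusted p = 0.0628). Per length, Lamtor2 (70.1 ± 0.721 CPM per kb, SD, n = 3) and Lamtor4 (67.0 ± 3.43) were the highest Ragulator genes in controls and did not differ beyond their spread, followed by Lamtor5 (42.8 ± 0.725), Lamtor1 (17.1 ± 0.407) and Lamtor3 (3.50 ± 0.278). The order in gSpns1-cKO livers was the same, with Lamtor3 at 5.87 ± 0.494 CPM per kb. Under TMM scaling, the summed Ragulator level was 200.5 ± 4.13 CPM per kb in controls and 149.9 ± 6.06 in gSpns1-cKO livers. The groups did not overlap under that scaling (0.747-fold, two-sided exact permutation p = 0.1, the smallest possible). Like the 3 lower calls, this lower sum depends on the scaling, and the sum by library size alone is not given.

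In the V1 part, 9 of the 14 genes chosen by name were tested, 5 were called higher (background 21.3%) and none lower (background 20.5%, at an unadjusted p under 0.05, edgeR gave 6 higher and 0 lower, DESeq2 called 4 higher and 1 lower, and limma-voom 4 higher and 0 lower). Atp6v1a and Atp6v1b2 encode the A and B subunits, which form the ATP-hydrolysing ring. Atp6v1a (chromosome 16, 44085402 to 44139705, minus strand) was at 45.1, 50.9 and 52.4 CPM in control livers and at 91.1, 71.2 and 79.7 CPM in gSpns1-cKO livers. The difference was 1.63-fold without overlap (log2 fold change 0.70, 95% interval 0.44 to 0.97, edgeR adjusted p = 0.00122). Atp6v1b2 was at 53.9, 54.9 and 49.4 CPM in controls and at 87.5, 77.5 and 73.9 CPM in gSpns1-cKO livers (1.51-fold, log2 fold change 0.59, SE 0.108, edgeR adjusted p = 0.0017). It overlaps Slc18a1 on the opposite strand, which had 921 reads over the 6 livers beside 13483 for Atp6v1b2, and whether counting used strand is not given in the sources used here.

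The 3 other V1 genes called higher differed by less. Atp6v1d, a subunit of the central stalk, was at 44.4, 48.4 and 46.1 CPM in controls and at 55.6, 62.5 and 63.8 CPM in gSpns1-cKO livers (log2 fold change 0.39, edgeR adjusted p = 0.0117). Atp6v1e1, a subunit of the peripheral stalks, was at 107, 104 and 118 CPM in controls and at 133, 130.0 and 149 CPM in gSpns1-cKO livers (0.33, edgeR adjusted p = 0.0377). Atp6v1c1, whose product links the stalks and takes part in the regulated assembly of V1 with V0, was at 44.0, 44.6 and 43.0 CPM in controls and at 60.5, 48.0 and 53.5 CPM in gSpns1-cKO livers (0.30, edgeR adjusted p = 0.0487). None of the 3 overlapped between groups, but all lost the call when a liver was left out. Atp6v1d did so only without gSpns1-cKO liver 3 (adjusted p = 0.0586), Atp6v1e1 without that liver or without any of the controls (highest adjusted p 0.165) and Atp6v1c1 in each case except without gSpns1-cKO liver 2 (highest 0.145).

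The V1 genes not called included both a clear separation and a wide spread. Atp6v1g1, of the peripheral stalks, lay above the controls in every gSpns1-cKO liver (81.0 to 99.6 CPM against 106 to 115 CPM) and just missed the threshold (log2 fold change 0.28, edgeR adjusted p = 0.0670). Atp6v1f, of the central stalk, was at 65.7 to 75.0 CPM in controls and 53.1 to 67.8 CPM in gSpns1-cKO livers and had a log2 fold change of -0.25 (adjusted p = 0.123). Atp6v1h, a regulatory subunit that V1 needs for activity, was at 147, 62.2 and 104 CPM in controls and at 71.9, 57.5 and 63.6 CPM in gSpns1-cKO livers. Its controls differed among themselves by more than the groups did, and the fold change of -0.70 (95% interval -1.43 to 0.035) was not called (edgeR adjusted p = 0.113), whereas DESeq2 called it (adjusted p = 0.0156). Without control liver 2 it was -0.97 and called (adjusted p = 0.00337), and without control liver 1 it was -0.38 (adjusted p = 0.188). Atp6v1g2, known from neurons, was at 1.04 to 2.03 CPM in both groups together (log2 fold change -0.017, 95% interval -0.71 to 0.68), and it overlaps Nfkbil1 on the opposite strand, which had more reads.

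**Figure D3:**
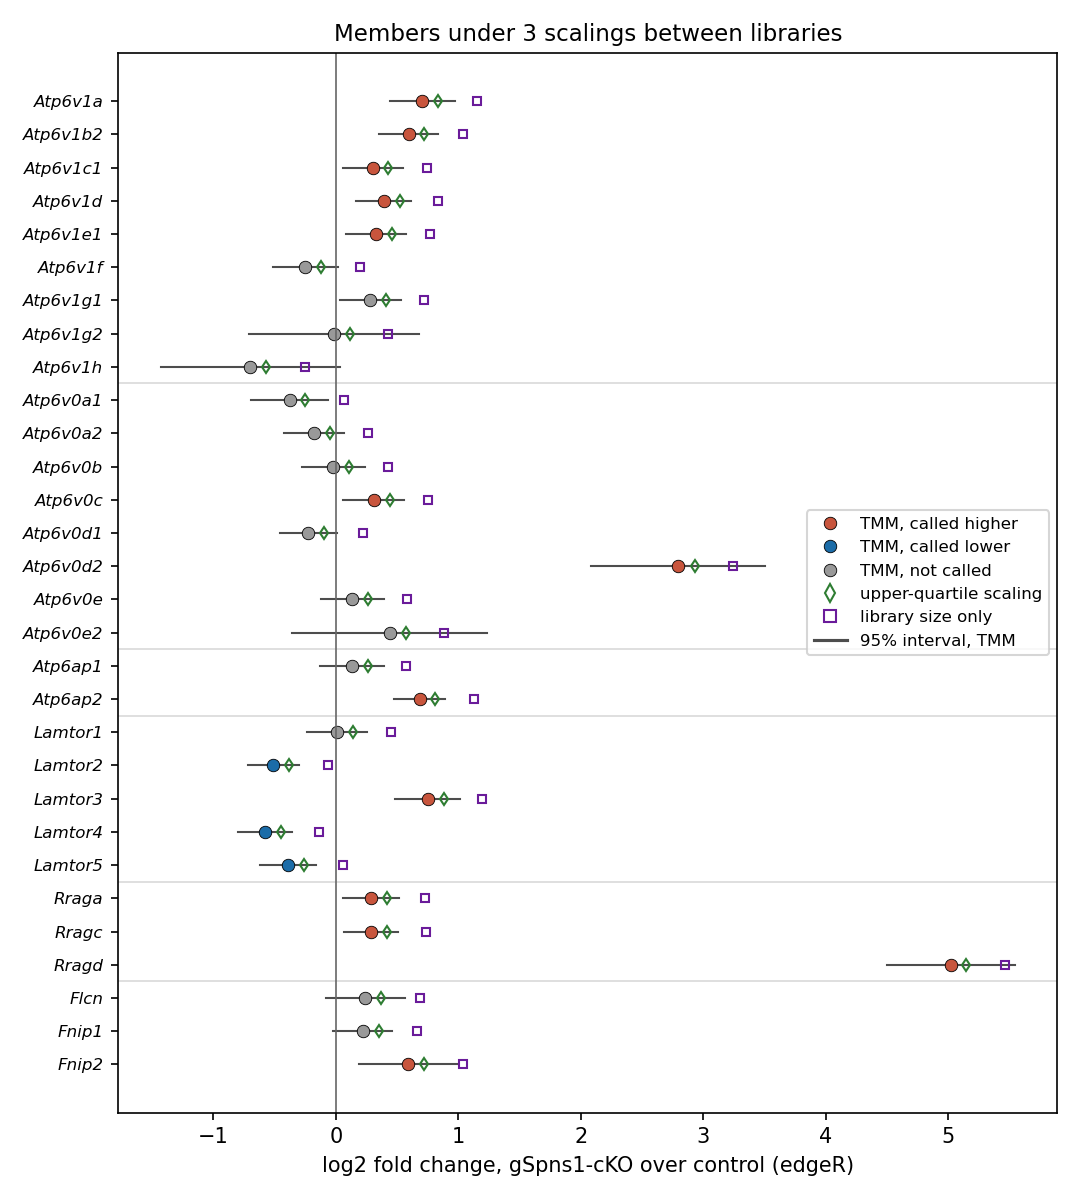
Log2 fold change of the tested members, gSpns1-cKO over control, with the 95% interval under TMM scaling (line), grouped as V1, V0, accessory, Ragulator, Rag and folliculin from the top. Filled circles are the TMM values (red called higher, blue called lower, grey not called), open diamonds upper-quartile scaling and open squares library size alone. By library size alone every value lies further to the right, so that Lamtor2, Lamtor4 and Lamtor5 sit between -0.14 and 0.054, while Rragd and Atp6v0d2 stay far from 0 under all 3.

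Of the 9 V0 genes, 8 were tested, 2 were called higher, near the background of 21.3%, and none lower (background 20.5%, 1 lower at an unadjusted p under 0.05, and 0 lower by DESeq2 or limma-voom). The larger difference was in Atp6v0d2, which encodes the second form of the d subunit at the foot of the central stalk and is best known from osteoclasts and macrophages. Atp6v0d2 (chromosome 4, 19876841 to 19922605, minus strand) had 53, 54 and 91 reads in control livers and 451, 822 and 621 reads in gSpns1-cKO livers. This came to 1.89, 1.75 and 3.60 CPM against 12.5, 21.4 and 15.8 CPM, so the highest control was far below the lowest gSpns1-cKO liver. The difference was 6.93-fold (log2 fold change 2.79, 95% interval 2.08 to 3.51, edgeR adjusted p = 0.000287) and stayed between 2.56 and 3.18 when any 1 liver was left out.

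Its general form moved little. Atp6v0d1 was at 96.8, 107 and 104 CPM in controls and at 93.9, 86.3 and 83.1 CPM in gSpns1-cKO livers, and although every gSpns1-cKO liver was below the controls it was not called (log2 fold change -0.23, 95% interval -0.46 to 0.0063, adjusted p = 0.108), with the sign turned by library size alone (0.22). Atp6v0d2 thus made up 1.27, 1.07 and 2.23% of the 2 d genes per kilobase in controls and 8.10, 14.1 and 11.1% in gSpns1-cKO livers. Its log2 ratio to Atp6v0d1 differed by 3.04 (two-sided exact permutation p = 0.1, the smallest possible, and 0.26 adjusted over the same 13 pairs). Per length it remained the minor form, at 0.888 ± 0.378 against 57.2 ± 2.91 CPM per kb for Atp6v0d1 in controls and at 6.11 ± 1.66 against 49.0 ± 3.10 in gSpns1-cKO livers (SD, n = 3).

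Macrophage markers, like Atp6v0d2 and Rragd, were higher in gSpns1-cKO livers than in controls. Across the 3 gSpns1-cKO livers the 12 macrophage markers summed to 1139, 776 and 837 CPM, beside 76.2, 44.7 and 59.7 CPM for Rragd and 12.5, 21.4 and 15.8 CPM for Atp6v0d2. Within this group Rragd had the same order as the marker sum, and Atp6v0d2 had the reverse order. With 3 livers the order within the group is a description only. Of the lipid-associated macrophage markers, Gpnmb was at 0.320, 1.17 and 0.277 CPM in controls and at 64.2, 69.9 and 77.1 CPM in gSpns1-cKO livers, and Trem2 at 1.28 to 1.72 against 13.4 to 15.9 CPM. The 2 markers of that list that were not called had negative log2 fold changes, Fabp5 at -0.69 and Acp5 at -0.22, the latter with every gSpns1-cKO liver below the controls. The part of a change in cell numbers in the differences of Atp6v0d2 and Rragd was not tested.

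**Figure D4:**
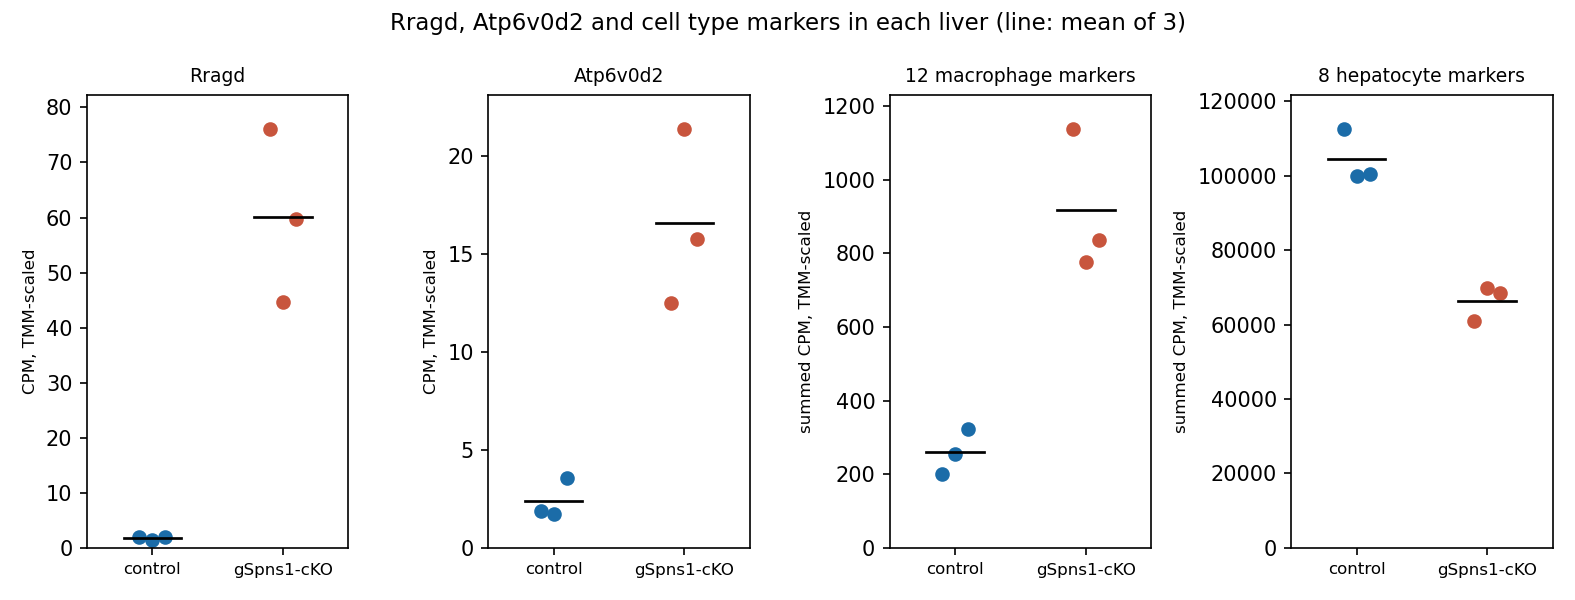
TMM-scaled CPM of Rragd and Atp6v0d2 and the summed CPM of 12 macrophage and 8 hepatocyte markers in each control liver (blue) and gSpns1-cKO liver (red), with the mean of 3 as a line and each axis starting at 0. The groups do not overlap in any panel, and the hepatocyte sum (99938 to 112660 against 60874 to 69880 CPM) is the 1 that is lower in gSpns1-cKO livers.

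The other V0 gene called higher was Atp6v0c, which encodes the proteolipid c subunit of the rotor. It was at 32.5, 39.4 and 36.3 CPM in controls and at 48.9, 43.3 and 41.9 CPM in gSpns1-cKO livers, without overlap (log2 fold change 0.31, edgeR adjusted p = 0.0480), but lost the call when any liver other than control liver 2 was left out (highest adjusted p 0.175) and by DESeq2 and limma-voom. The other rotor gene, Atp6v0b (c″), was at 103 to 113 CPM in controls and 97.5 to 120.1 CPM in gSpns1-cKO livers and was not called (-0.020, 95% interval -0.28 to 0.24). The large a subunit, which lines the proton path and sets where the pump goes, is encoded by Atp6v0a1, Atp6v0a2, Atp6v0a4 and, outside the naming rule, Tcirg1. Atp6v0a1 was at 69.1, 75.2 and 64.8 CPM in controls and at 66.0, 48.3 and 46.7 CPM in gSpns1-cKO livers. The groups overlapped by gSpns1-cKO liver 1, the gene was not called (log2 fold change -0.38, adjusted p = 0.0534), and without that liver it was called (-0.56).

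Atp6v0a2 was at 29.9 to 36.2 CPM in controls and 27.2 to 29.4 CPM in gSpns1-cKO livers (-0.18, adjusted p = 0.218). Tcirg1, the a3 form known from osteoclasts and macrophages, was at 42.3, 72.7 and 48.7 CPM in controls and at 63.4, 65.6 and 60.1 CPM in gSpns1-cKO livers. It overlapped and was not called (0.21, 95% interval -0.20 to 0.61, adjusted p = 0.388), although it was called without control liver 2 (0.46). Within the a subunits, the log2 ratio of Tcirg1 to Atp6v0a2 differed by 0.42 (exact permutation p = 0.3) and that of Atp6v0a1 to Atp6v0a2 by -0.22 (exact permutation p = 0.3), both with overlap. Of the small e subunit genes, Atp6v0e (log2 fold change 0.13) and Atp6v0e2 (0.44, at 0.676 to 1.53 CPM) were not called.

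Of the accessory proteins, which bind the membrane part and help the pump assemble, 2 were tested. Atp6ap2, also known as the prorenin receptor, was at 47.6, 47.3 and 48.2 CPM in control livers and at 80.1, 74.4 and 75.5 CPM in gSpns1-cKO livers. The 2 groups were tight and far apart (1.61-fold, log2 fold change 0.68, SE 0.0955, edgeR adjusted p = 0.000389). Atp6ap1 was at 86.3 to 100.4 CPM in controls and at 95.1 to 116 CPM in gSpns1-cKO livers, overlapped and was not called (0.13, 95% interval -0.13 to 0.39).

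Summed per length over its tested and untested genes, the V1 part was at 219.5 ± 10.2 CPM per kb in controls and 244 ± 14.6 in gSpns1-cKO livers (SD, n = 3), 1.11-fold and without overlap (two-sided exact permutation p = 0.1, the smallest possible). The V0 sum was at 152 ± 7.44 and 149 ± 12.7 CPM per kb, with overlap (exact permutation p = 0.8). Both sums are TMM-scaled and depend on that scaling. The log2 ratio of the V1 sum to the V0 sum, which does not depend on the scaling between libraries, was 0.67, 0.47 and 0.45 in controls and 0.67, 0.70 and 0.77 in gSpns1-cKO livers. The ratios overlapped, and the difference of 0.18 was not beyond the spread (two-sided exact permutation p = 0.2). Taken as the mean of log2 levels over the tested subunits, the difference had the other sign (-0.17, exact permutation p = 0.3). Every gene weighs the same in that mean, so the minor form Atp6v0d2, with its log2 fold change of 2.79, counts as much as Atp6v0d1. The mean without Atp6v0d2 was not computed. Neither measure differed beyond the spread, so a shift between the 2 parts was neither shown nor excluded. Per length the subunit genes spanned a wide range in control livers, from 0.388 ± 0.0911 CPM per kb for Atp6v0e2 to 79.9 ± 8.24 for Atp6v1g1 among those tested.

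**Figure D5:**
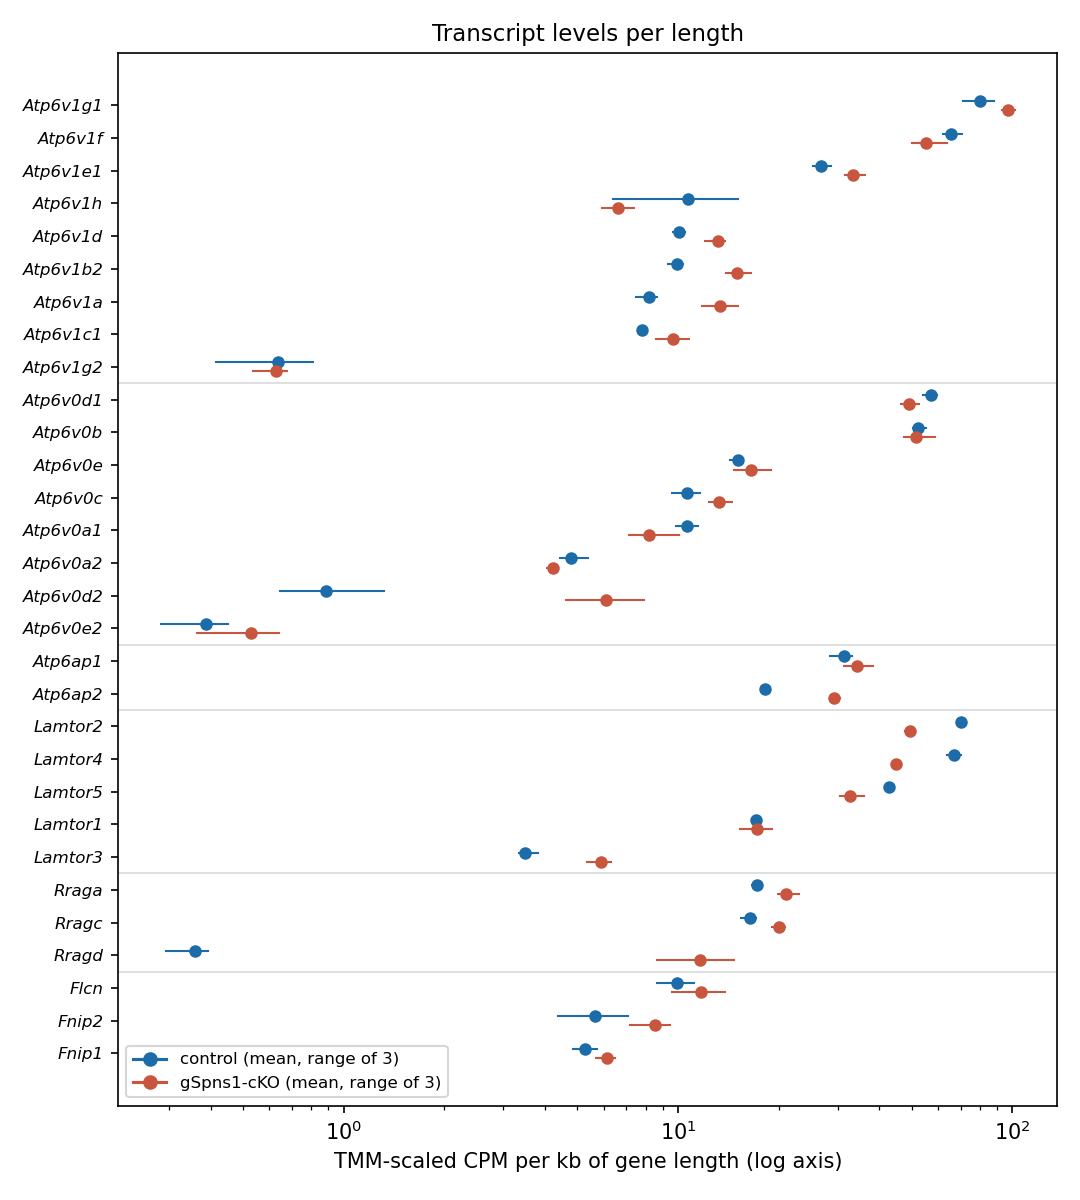
Mean TMM-scaled CPM per kb of gene length (log axis) of each tested member in control livers (blue) and gSpns1-cKO livers (red), with a line over the range of the 3 livers, grouped as V1, V0, accessory, Ragulator, Rag and folliculin from the top. Rragd moves from the lowest level of all (0.359 CPM per kb) to near that of Flcn (11.6 beside 11.7), and Atp6v0d2 from 0.888 to 6.11, while the most abundant subunits, Atp6v1g1, Atp6v1f, Atp6v0d1 and Atp6v0b, remain the highest V-ATPase genes.

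Of the 3 folliculin genes, 1 was called higher (background 21.3%). Fnip2 was at 59.4, 36.6 and 45.9 CPM in controls and at 79.1, 60.0 and 74.6 CPM in gSpns1-cKO livers. The groups were separated only narrowly, by 59.4 against 60.0 CPM (log2 fold change 0.59, SE 0.177, edgeR adjusted p = 0.0245), and the call was lost without gSpns1-cKO liver 1 or 3 or control liver 2 or 3 (highest adjusted p 0.0802). Its paralog Fnip1 was at 34.5 to 40.8 CPM in controls and 40.4 to 46.2 CPM in gSpns1-cKO livers (0.22, adjusted p = 0.128), and Flcn at 37.5 to 48.3 and 41.6 to 59.6 CPM (0.24, adjusted p = 0.208). Neither was called. The log2 ratio of Fnip2 to Fnip1 differed by 0.39, with overlap (exact permutation p = 0.2), so the 2 were not shown to move differently.

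The members with few or no reads are mostly forms known from kidney, inner ear, testis or brain. No read was counted in any liver for Atp6v1e2, Atp6v1g3, Atp6ap1l and Atp6v1fnb, the last of which takes its name from its neighbour Atp6v1f and is not a subunit. Atp6v0a4 had 20 reads in all controls and 17 in all gSpns1-cKO livers (ratio 0.63 relative to the scaled library sizes, exact 95% interval 0.31 to 1.27). Atp6v1b1 had 0 and 3 reads and Atp6v1c2 0 and 8. The interval of Atp6v0a4 included equal levels. For Atp6v1b1 and Atp6v1c2, with 0 reads in controls, no ratio was computed and the difference was not tested. Atp6v1c2 overlaps Pdia6 on the opposite strand, which had 57553 reads.

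The genes around these complexes were counted from lists that were chosen with earlier results of these data known. Of 12 genes of mTORC1 and its switch, 4 were called lower (background 20.5%) and none higher (background 21.3%, 0 higher at an unadjusted p under 0.05, and 0 by DESeq2 or limma-voom), with a median log2 fold change of -0.26. By library size alone 2 of the 12 were called higher (background 47.2%) and none lower (background 6.28%). The lowest were Rptor, the mTORC1 scaffold that binds the Rag GTPases, at 36.5, 45.1 and 40.9 CPM in controls and 33.0, 24.7 and 25.5 CPM in gSpns1-cKO livers (-0.56, edgeR adjusted p = 0.00814), and Akt1s1, an mTORC1 inhibitor (-0.50, adjusted p = 0.0125). The call of Akt1s1 was lost without gSpns1-cKO liver 3 (adjusted p = 0.0578), and it overlaps Tbc1d17 on the opposite strand with 8112 reads. The sensors of amino acids and cholesterol had 2 of 13 called higher (background 21.3%) and 2 lower (background 20.5%). Gpr155, the lysosomal cholesterol sensor, showed the clearest difference, at 35.9, 45.7 and 47.8 CPM in controls and 16.5, 19.9 and 15.7 CPM in gSpns1-cKO livers (-1.31, SE 0.141, edgeR adjusted p = 8.57e-05), and it was called under every setting tried.

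Lars2 (-0.59), a mitochondrial leucyl-tRNA synthetase and not a known sensor, was the other sensor-list gene called lower, and Sesn1 (0.64), a leucine-binding inhibitor of GATOR2, and Pqlc2 (0.45), an exporter of cationic amino acids, were called higher. Of 12 genes of GATOR1, GATOR2 and KICSTOR, which set the nucleotide state of RagA, 2 were called lower (background 20.5%), Nprl2 (-0.83) and Kptn (-0.39, turned to 0.049 by library size alone). Of 12 partners of the Rag and folliculin proteins, 3 were called lower, near the background of 20.5%, and none higher (background 21.3%, 0 higher at an unadjusted p under 0.05, and 0 by DESeq2 or limma-voom), led by Borcs5 (-0.63) and Borcs6 (-0.58) of the BORC complex that moves lysosomes along microtubules. By library size alone 5 of the 12 partners were called higher (background 47.2%) and none lower (background 6.28%).

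Of the 4 MiT/TFE factors, the family of TFEB and TFE3, Tfec was at 0.925, 1.20 and 1.03 CPM in controls and 3.72, 4.67 and 2.21 CPM in gSpns1-cKO livers (1.74, edgeR adjusted p = 0.00176). Mitf was higher as well (0.85, adjusted p = 0.0121), while Tfeb was lower (-0.57, adjusted p = 0.0136), a call lost by library size alone and without control liver 2 (adjusted p = 0.0521). Tfec and Mitf are both expressed in macrophages, whose 12 markers were higher in these livers, and the part of that was not tested. Of 13 V-ATPase subunits and assembly factors outside the naming rule, 4 were called higher (background 21.3%) and none lower (background 20.5%, 0 lower at an unadjusted p under 0.05, and 0 by DESeq2 or limma-voom). These were Ncoa7 (1.52, at 0.747 to 1.43 against 2.16 to 3.26 CPM), a V-ATPase-binding protein, Rabl2 (1.05), a Rab-like GTPase known from cilia, Dmxl2 (0.65), of the complex that joins V1 to V0, and Tmem199 (0.39), an assembly factor. Ncoa7 overlaps Hint3 on the same strand, which had 5843 reads over the 6 livers beside 404 for Ncoa7.

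Lysosomal ion channels and exchangers, which work with the proton pump, had 6 of 11 called higher (background 21.3%) and 1 lower (background 20.5%), with a median log2 fold change of 0.54. Mcoln2, a calcium channel of the mucolipin family, had 3, 3 and 6 reads in controls and 37, 53 and 52 in gSpns1-cKO livers (3.08, SE 0.466, edgeR adjusted p = 0.000609), and the control values were at or near the limit of 3 counts. Clcn5, a chloride-proton exchanger, was at 3.70, 5.72 and 6.95 CPM in controls and 11.5, 11.1 and 14.4 CPM in gSpns1-cKO livers (1.18, edgeR adjusted p = 0.00219). Tpcn1, a sodium and calcium channel, was the 1 called lower (-0.44, adjusted p = 0.0436), with overlap between the groups and with a value of 0.0035 by library size alone.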

How the data were processed

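Poly-A RNA from 3 gSpns1-cKO and 3 control livers was sequenced by a commercial service, 1 library per liver. Per the submitters' processing notes, reads were processed with fastp, HISAT2 2.0.5 and featureCounts 1.5.0-p3 on mm10. The deposited table holds whole-number counts per gene, not normalized, with FPKM values computed by the authors from counts, gene length and a library total, and the gene length in bases. It also holds the authors' own group means, fold changes and p-values, which were not used. FPKM values were checked only for their unit. Strand use in counting is not given in the sources used here. No value of the table belonged to another sample (0 columns). Of the 38 members, 36 had the same coordinates in GENCODE M21 (GRCm38), as did 98.3% of the 54409 genes matched.

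Testing was by edgeR 4.0.16 under R 4.3.3 (filterByExpr by genotype, TMM, robust quasi-likelihood test, Benjamini-Hochberg adjustment over 15449 genes, threshold 0.05). SE values of log2 fold changes are their size over the square root of F. Levels per length are CPM per kb of the deposited gene length, and log2 ratios within a library used a pseudocount of 0.5 counts. Exact permutation tests were two-sided and cannot go below p = 0.1 with 3 against 3. Libraries of a group differed by more than sampling noise (chi-square per gene 38.8 to 114), and no source says more about the livers than 1 label each, so p-values measure the spread between these samples. The 95% intervals of log2 fold changes come from the edgeR fit and include the spread between livers, whereas the exact intervals of summed reads and the limit of 3 counts cover counting error only, since the reads carry no molecular identifiers. Alternatives were DESeq2 1.42.0, limma-voom (limma 3.58.1), library size alone, upper-quartile scaling, filters of 1 count in some library or of 10 in each, only protein-coding genes, a replicate block, leaving out each liver in turn and a threshold of 0.01. For ratios, a pseudocount of 1 and raw counts not per kb were also tried. The tests were run on simulated counts with 200 changed genes.

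The members and the gene lists were chosen with earlier results of these data known. Named are all members, Spns1, Tcirg1 and, in each list of related genes, up to 2 called genes with the largest rise and 2 with the largest fall. Dmxl2 and Tmem199 were named in addition after their values were seen, as were the markers Gpnmb, Trem2, Fabp5 and Acp5. An item that the rule selects is not reported here.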

Additional observations from a re-analysis of the deposited data

How the results depend on the processing

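Of 51 single-gene results, 713 pairs of gene and alternative setting were computed. In 589 the direction and the side of the threshold were the same, in 81 the call was lost, in 20 it was gained, and in 23 the sign turned. The number of members called higher (13) became 8 with genes of at least 1 count in any library tested, 20 by library size alone, 6 at a threshold of 0.01, and 6 to 10 when 1 liver was left out. It was 9 with a replicate block, 10 with DESeq2, 11 with limma-voom, 15 by upper-quartile scaling and 14 with at least 10 counts in every library. The number called lower (3) became 5 with genes of at least 1 count, 0 by library size alone (0 also at an unadjusted p under 0.05), 5 with the replicate block, and 2 to 5 when 1 liver was left out. Shares over all genes are given above for DESeq2, limma-voom, library size alone and upper-quartile scaling. For the other settings they are not given, so whether calls over all genes changed alike cannot be told. The median of the members (0.26) was 0.70 by library size alone and 0.39 by upper-quartile scaling, and 0.21 to 0.28 when 1 liver was left out. For Spns1 (-0.87) the call was lost at -0.43 and -0.74 under these 2 scalings, and the value was -1.18 to -0.68 when 1 liver was left out. The V1 to V0 difference (0.18) was -0.17 from mean log2 levels and 0.14 to 0.25 when 1 liver was left out.

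By library size alone the sign turned for Lamtor5 (0.054), Atp6v0a1 (0.064), Atp6v0a2 (0.27), Atp6v0b (0.42), Atp6v0d1 (0.22), Atp6v1f (0.19), Atp6v1g2 (0.43), Kptn (0.049) and Tpcn1 (0.0035), in a fit in which the median of all genes moved up to 0.46. Near 0 it also turned for Atp6v0b and Atp6v1g2 with at least 10 counts in every library (0.023 and 0.027) and by upper-quartile scaling (0.11 each), and for Atp6v1g2 with limma-voom (0.038) and the replicate block (0.017). Leaving out 1 liver gave -0.077 to 0.087 for Lamtor1, -0.12 to 0.034 for Atp6v0b and -0.26 to 0.18 for Atp6v1g2. The cause of these changes was not tested.

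Replicate numbers did not pair the livers, since deviations of same-numbered livers correlated at 0.037, 0.033 and -0.028. A fit with the number as a block is therefore only an alternative. The depth sets the limit for the 8 members that were not tested.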
